A study of Rattus norvegicus with 8 samples.

Results

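The vesicular glutamate transporters and the neurofilament subunits were followed in rat hippocampal slice cultures, in which thin sections of the structure are maintained in vitro. The set held 7 genes, taken by name: the transporters Slc17a6, Slc17a7 and Slc17a8, and the filament genes Nefl, Nefm, Nefh and Ina. Every probe set, the array's unit of measurement for a transcript, was used if the platform annotation gave it a single one of these symbols. That gave 9 probe sets out of 31099 on the array, and 6 genes out of 14218 with a probe set of a single symbol: 1 probe set each for Slc17a6, Nefm and Nefh and 2 each for Slc17a7, Nefl and Ina. No probe set carried Slc17a8 as its only symbol, so Slc17a8 is not analysed here.

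The set was chosen by the measured difference between CA3 and CA1 controls on these arrays, where Slc17a6 and Nefl had stood out. The differences between the control groups are therefore given as a description, with no test. The lesion arrays entered no part of that difference, and the values of the set in them are reported separately.

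RNA came from the pyramidal cell fields CA1 and CA3. The groups were CA1 control (3 arrays), CA3 control (3 arrays), CA1 lesion (1 array) and CA3 lesion (1 array), all with a time of 7 days, and each array held RNA of 15 subdissected cultures. The kind of lesion, the strain and the age of the rats and the start of the 7 days are not given in the labels. No label says that arrays came from separate animals, so a p-value here reflects no more than how these arrays vary, which may be technical. The field genes tested ran in the direction of the labels. The CA1 genes Pou3f1, Mpped1 and Fibcd1 differed between CA3 and CA1 controls by -4.52, -3.69 and -3.86 on the log2 scale. The CA3 genes Cpne4 and Nectin3 differed by 3.08 and 1.69 (limma adjusted p over these genes from 0.00144 to 0.0158, n = 3 per field). Wfs1 for CA1 (-2.29) and Grik4 and Bok for CA3 (1.62 and 0.64) did not pass 0.05 (limma adjusted p = 0.229, 0.142 and 0.623). These lists were chosen with earlier results of these data known. In a fit without an intensity trend, 0 probe sets passed.

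Vesicular glutamate transporters load glutamate into synaptic vesicles, using the proton gradient built by the vesicular proton pump, and a neuron that makes one of them can release glutamate as a transmitter. Slc17a7 (VGLUT1) is known as the main form of adult hippocampal and cortical pyramidal cells. Slc17a6 (VGLUT2) prevails in thalamus and brainstem and in young neurons, and Slc17a8 (VGLUT3) is found in scattered neurons, among them some that also release another transmitter. Neurofilaments are the intermediate filaments of neurons and set the calibre of axons. They are built from the light (Nefl), medium (Nefm) and heavy (Nefh) chains and from alpha-internexin (Ina), which appears early in neuronal development.

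Upstream sequence was available from RefSeq (GRCr8) for 4 of the 7 genes, Slc17a6, Slc17a7, Slc17a8 and Ina. The 250 bases before the start of the genes are shown for both measured transporters, whose field differences had opposite signs, and for Ina, the filament gene with overlapping fields. Slc17a6 (chr1:110348197-110348446), Slc17a7 (chr1:104785955-104786204) and Ina (chr1:255837879-255838128) all lie on the plus strand. Capitals mark the E-box CANNTG, which reads the same on both strands, and the GC box GGGCGG on either strand.
Slc17a6: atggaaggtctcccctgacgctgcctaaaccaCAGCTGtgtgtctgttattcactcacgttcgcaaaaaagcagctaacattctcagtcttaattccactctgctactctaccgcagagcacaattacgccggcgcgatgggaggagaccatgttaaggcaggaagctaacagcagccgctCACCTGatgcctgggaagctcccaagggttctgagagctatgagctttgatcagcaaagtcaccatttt
Slc17a7: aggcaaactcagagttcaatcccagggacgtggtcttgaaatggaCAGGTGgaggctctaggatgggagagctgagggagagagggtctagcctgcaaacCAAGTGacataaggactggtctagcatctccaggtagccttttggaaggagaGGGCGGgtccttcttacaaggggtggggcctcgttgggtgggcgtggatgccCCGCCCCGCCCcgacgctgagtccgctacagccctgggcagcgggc
Ina: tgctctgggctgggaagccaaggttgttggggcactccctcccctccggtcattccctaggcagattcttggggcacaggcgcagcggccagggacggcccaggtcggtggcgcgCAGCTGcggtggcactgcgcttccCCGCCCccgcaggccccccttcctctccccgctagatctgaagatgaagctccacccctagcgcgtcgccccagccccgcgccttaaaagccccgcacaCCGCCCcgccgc

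The upstream stretch of Slc17a6 held 2 E-boxes and 0 GC boxes, that of Slc17a7 held 2 E-boxes and 3 GC boxes, and that of Ina held 1 E-box and 2 GC boxes. The last pair of GC boxes of Slc17a7 overlaps. Of 33469 rat promoters of the same length, 65.5% held an E-box and 30.5% a GC box. The GC content was 50.8% for Slc17a6, 61.2% for Slc17a7 and 70.8% for Ina, against a median of 51.2% over all promoters. These matches describe letters only and show no binding. On the same assembly Nefl and Nefm lie side by side on chromosome 15 with 0 protein-coding genes between them, while Slc17a6 and Slc17a7 share chromosome 1 with 104 between them.

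Slc17a6 (probe set 1368564_at) was the member with more signal in CA1. Its intensity was 4533, 5033 and 3723 in the numbered CA1 controls and 1493, 1166 and 604 in the CA3 controls, in the order of their numbers as everywhere here. All CA1 controls lay above all CA3 controls, with 1.31 log2 units between the lowest CA1 and the highest CA3 array. The CA3 minus CA1 difference was -2.09 ± 0.34 (SE, n = 3 arrays per field) on the log2(intensity + 16) scale on which all differences are given, or 4.27-fold. The SE, here and below, is that of the limma fit, which draws on the spread of all probe sets tested. It is not the SE of these arrays alone, whose SD was 0.22 in CA1 and 0.66 in CA3. Compared number by number the difference was -1.59, -2.09 and -2.59, and it ran from -2.37 to -1.72 when single arrays were left out.

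Slc17a7 did not share that pattern. Its brighter probe set, 1368987_at, read 6294, 6880 and 3750 in CA1 controls and 12284, 9689 and 5468 in CA3 controls. The groups overlapped, because CA3 control 3 lay below both CA1 control 1 and CA1 control 2. The difference was 0.67 ± 0.32 (SE, n = 3 per field), higher in CA3. Within numbers this probe set gave 0.96, 0.49 and 0.54, all higher in CA3. The other probe set, 1368986_at, read 1926, 2748 and 2725 in CA1 and 3167, 3192 and 2119 in CA3, and differed by 0.19 ± 0.26. Within numbers the second probe set gave 0.71, 0.22 and -0.36, so its sign was not common to the 3 comparisons. Its difference became -0.07 without the controls numbered 1 in both fields. Leaving out a number in both fields, here and below, was chosen after seeing the data. The Slc17a7 probe sets differed from each other by 0.43 log2 units (root mean square over the 8 arrays, each centred on its own mean).

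**Figure D1:**
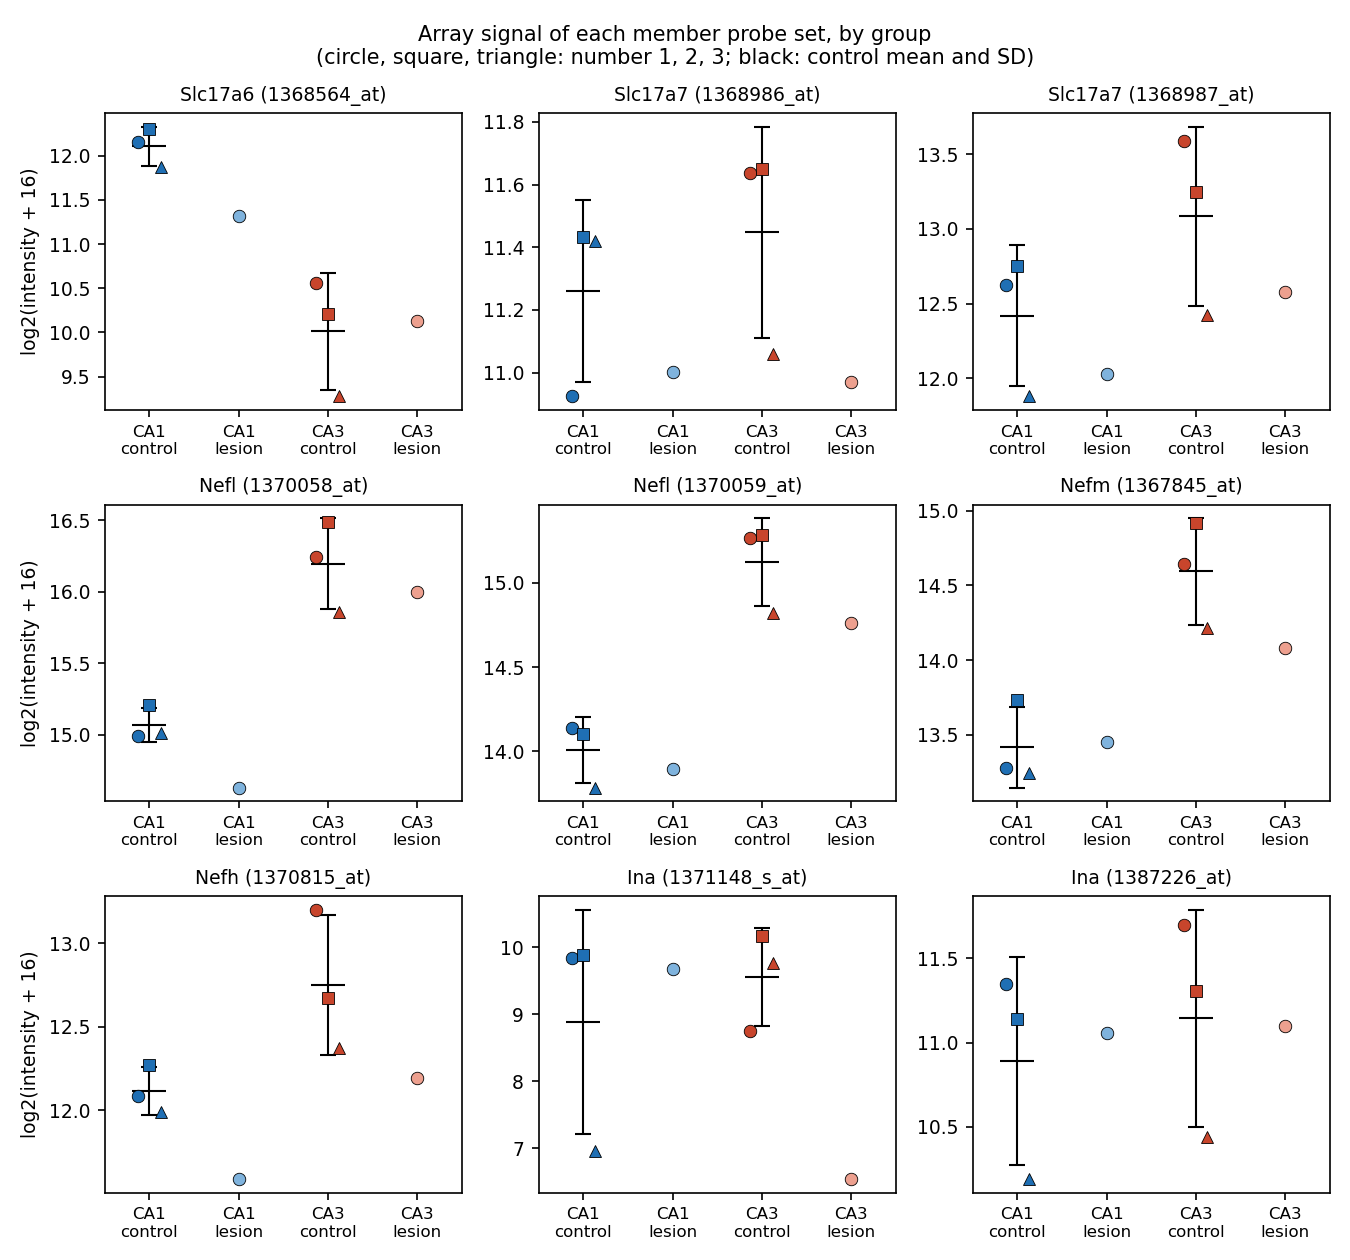
Log2(intensity + 16) of the 9 probe sets (vertical axes, each panel with its own range that does not start at 0) in the 4 groups, with circle, square and triangle for numbers 1, 2 and 3 and black bars for the control mean and SD. Slc17a6 is higher in every CA1 control than in any CA3 control, Nefl, Nefm and Nefh are lower in every CA1 control than in any CA3 control, and Slc17a7 and Ina overlap.

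The neurofilament chains had more signal in CA3. Nefl, the light chain on which filaments assemble, read 32650, 37854 and 33019 in CA1 controls and 77629, 91959 and 59419 in CA3 controls by probe set 1370058_at. The lowest CA3 control exceeded the highest CA1 control by 0.65 log2 units. The difference was 1.13 ± 0.18 (SE, n = 3 per field), 2.18-fold, and 0.98 to 1.29 with single arrays left out. Probe set 1370059_at, also for Nefl, read 18007, 17580 and 14064 in CA1 and 39392, 39858 and 28913 in CA3. It gave 1.12 ± 0.18, and the Nefl probe sets differed from each other by only 0.17 log2 units in profile.

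Nefm, the medium chain (1367845_at), read 9909, 13559 and 9668 in CA1 controls and 25629, 31010 and 18984 in CA3 controls. Again no CA3 array fell into the CA1 range, and the difference of 1.18 ± 0.22 (SE, n = 3 per field, 2.26-fold) was close to that of its neighbour Nefl. Within numbers Nefm differed by 1.37, 1.19 and 0.97. Over the 8 arrays the centred Nefl and Nefm profiles were 0.21 log2 units apart, compared with 0.36 for Nefl and Nefh and 0.65 for Nefl and Ina.

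Nefh, the heavy chain (1370815_at), separated the fields by less. Its intensity was 4334, 4938 and 4058 in CA1 controls and 9405, 6516 and 5300 in CA3 controls. The ranges were apart by 0.10 log2 units only, and CA3 control 1 was far above the other CA3 arrays. The difference was 0.63 ± 0.24 (SE, n = 3 per field, 1.55-fold) and 0.39 without the controls numbered 1 in both fields.

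The control ranges of Ina overlapped between the fields. Probe set 1387226_at read 2589, 2244 and 1152 in CA1 controls and 3299, 2512 and 1372 in CA3 controls, ranges that overlapped in part, with CA3 control 1 above every CA1 control and a difference of 0.25 ± 0.39 (SE, n = 3 per field). Within numbers this probe set gave 0.35, 0.16 and 0.25, all higher in CA3, and control 3 was the lowest array in both fields. Probe set 1371148_s_at, whose name marks possible cross-hybridisation, was dim and uneven, with 897, 926 and 109 in CA1 and 415, 1136 and 857 in CA3. Within numbers it gave -1.08, 0.29 and 2.81. Its difference of 0.67 ± 0.84 turned to -0.29 without CA1 control 3, and the Ina probe sets stood 1.25 log2 units apart in profile.

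In all, 5 of the 9 probe sets had control ranges that did not overlap, 4 of them higher in CA3 (both of Nefl, Nefm and Nefh) and 1 lower (Slc17a6). Over the 18625 probe sets tested, 6.06% were apart with CA3 higher and 8.85% with CA3 lower, and since these values led to the choice of the genes, nothing is read from the comparison. All 9 members were above the intensity filter, with mean levels between the 48.3 and the 98.9 percentile of all probe sets.

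**Figure D2:**
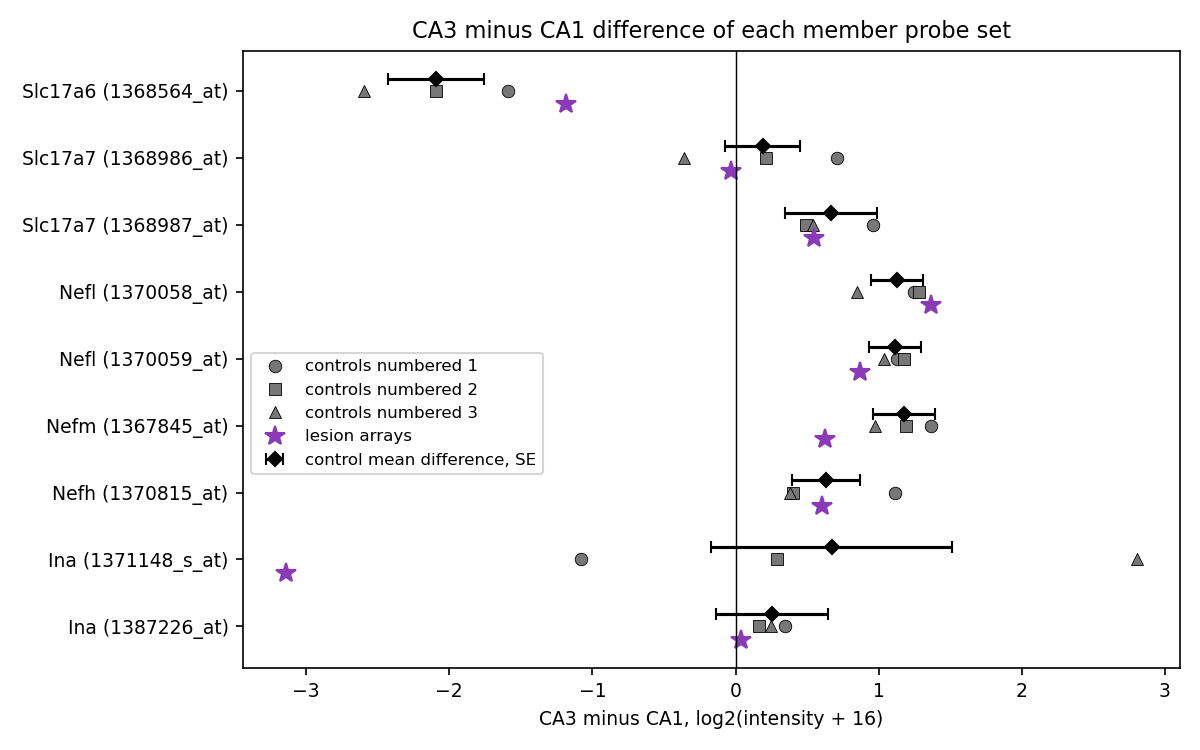
CA3 minus CA1 difference of each probe set in log2(intensity + 16) (horizontal axis), as the mean of the controls with its SE (diamonds), within each number (circle, square, triangle) and between the lone lesion arrays (stars). Nefl, Nefm and Nefh lie right of 0 and Slc17a6 left of 0 for controls and lesion arrays alike, while the dim Ina probe set runs from 2.81 to -3.14.

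The lone lesion arrays repeated the field differences of these 5 probe sets in sign. Slc17a6 read 2528 in CA1 and 1103 in CA3 after lesion, a difference of -1.18. Nefl read 25346 and 65342 by 1370058_at (1.37) and 15203 and 27802 by 1370059_at (0.87). Nefm read 11206 and 17325 (0.63), and Nefh 3059 and 4664 (0.61). These differences between single arrays were not tested. Of all probe sets whose control ranges were apart, 73.5% of those higher in CA3 and 62.2% of those lower in CA3 kept their sign in the lesion arrays (4.45% and 5.5% of all probe sets tested). Slc17a7 differed by 0.55 and -0.03 by its 2 probe sets and Ina by 0.04 and, by the dim probe set, -3.14.

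Neuronal genes were looked at beside the members. The list is called pan-neuronal here, although Camk2a, Nrgn and Neurod6 in it are mainly genes of excitatory neurons. Of 9 pan-neuronal genes, 8 had higher means in CA3 controls, 1 had a lower mean (Camk2a, a kinase gene, at -0.45) and 0 passed the threshold, with a median difference of 0.38, against -0.04 for all probe sets tested. The synaptic protein gene Snap25 was at 0.61 and the neuronal transcription factor gene Neurod6 at 0.65. The summed pan-neuronal intensity ranged from 203260 to 323720 in CA1 controls and from 293130 to 441240 in CA3 controls, so the ranges overlapped. In bulk RNA, fewer neurons and less RNA per neuron cannot be told apart. Set against the median pan-neuronal gene of each array, the CA3 minus CA1 difference was 0.78 and 0.77 for Nefl and 0.83 for Nefm, and on that scale their control ranges remained apart. It was 0.29 for Nefh, whose ranges then overlapped. For the brighter Slc17a7 probe set it was 0.32 and the ranges came apart, for the other -0.16. It was -0.09 for the brighter Ina probe set and 0.32 for the dim one, and -2.44 for Slc17a6, whose ranges stayed apart. These are the control values that led to the choice of the genes. The rescaled differences are therefore a description with no test, and nothing is read from which ranges stayed apart.

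Other cell types that can express Slc17a6 were looked at beside it. Of 8 listed Cajal-Retzius cell genes, early-born neurons of the hippocampal surface that are known to use VGLUT2, 5 had a probe set and 4 were tested. Of these, 3 were higher and 1 lower in CA3, with a median of 0.23 and 0 past the threshold. Reln, the secreted protein for which these cells are known and which interneurons also make, differed by -0.70 ± 0.29 (SE, n = 3 per field, limma adjusted p = 0.571), with overlapping ranges. Their summed intensity ranged from 15326 to 23423 in CA1 controls and from 9436 to 17962 in CA3 controls. Of 3 genes listed for the subiculum, the field next to CA1, Fn1 differed by 0.16. Nts, a neuropeptide gene, differed by -3.84 (limma adjusted p = 0.0684), and Tshz2 was under the filter. The subicular sum was 12501 to 17214 in CA1 and 9983 to 13516 in CA3 controls. The part of these cells in the Slc17a6 difference was not tested.

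The 3'/5' signal ratio of Gapdh, which rises as RNA degrades, was 3.71 to 5.0 in CA1 controls and 3.75 to 3.93 in CA3 controls, and 4.65 (CA1) and 5.23 (CA3) in the arrays after lesion. The same ratio of Actb did not order the arrays alike, with 14.5, 22.2 and 18.3 in CA1 controls, 21.4, 20.3 and 15.0 in CA3 controls, and 17.3 (CA1) and 19.8 (CA3) after lesion. Their part in the values was not tested.

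The genes that surround the members in their pathways were tested in the same comparison of the controls. Of 80 such genes in 6 lists, 71 had a probe set, 60 were tested and 0 passed the threshold in limma, where 98 of all 18625 probe sets did (0.526%). Leaving out control 1 of CA1 lowered that count to 47 and control 1 of CA3 to 27, and leaving out control 2 of either field gave 24. At an unadjusted p under 0.05 there were 8 of the 60 (13.3%) and 1548 of all probe sets (8.31%). The lowest adjusted p among the 60 was 0.323, for Ank2.

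For glutamate supply and clearance, 11 genes were tested and the median difference was close to 0. Slc1a3, an astrocyte glutamate transporter, was at -0.48 ± 0.19 (SE), Got1, which converts aspartate and glutamate, at 0.68 ± 0.28, and the glutamine transporter Slc38a1 at 0.35 ± 0.15 (limma adjusted p = 0.523, 0.557 and 0.571, n = 3 arrays per field). Of the 15 genes of the vesicular proton pump and its partners, 13 were higher in CA3 and 2 lower, with a median of 0.25 and 0 past the threshold. The pump subunit Atp6v1h was at 0.45, Atp6ap2 at 0.48 and Atp6v1b2 at 0.37. Of the other vesicular transmitter transporters and relatives of the SLC17 family, 3 of 9 with a probe set passed the filter, and the GABA transporter Slc32a1 was at -0.19, the monoamine transporter Slc18a2 at -0.51 and the lysosomal sialic acid transporter Slc17a5 at -0.26.

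Of 19 genes of the axonal cytoskeleton and its transport, 14 were higher and 5 lower in CA3, with a median of 0.21 and 0 past the threshold. The ankyrin gene Ank2, whose product links membrane proteins to the spectrin skeleton, was at 0.53 ± 0.16 (SE, n = 3 per field, limma adjusted p = 0.323). Ank3, the ankyrin of the axon initial segment, was at -0.93 and Gap43, a growth cone protein gene, at 0.49. Of 8 other intermediate filament genes tested, 6 were lower and 2 higher in CA3, with a median of -0.16. None passed the threshold, and 0 had an unadjusted limma p under 0.05. Among them the lamin gene Lmna was at -0.42, the astrocyte filament gene Gfap at -0.27 and Lmnb2 at -0.33. Peripherin (Prph), the filament of peripheral neurons, was under the filter. Of 11 kinases and turnover factors of neurofilaments, 4 were tested, with a median of 0.17 and 0 past the threshold. Ppp2ca, the catalytic subunit of a phosphatase, was at 0.34, Cdk5, a kinase that phosphorylates neurofilament tails, at 0.31 and the ubiquitin ligase gene Trim2 at -0.13.

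**Figure D3:**
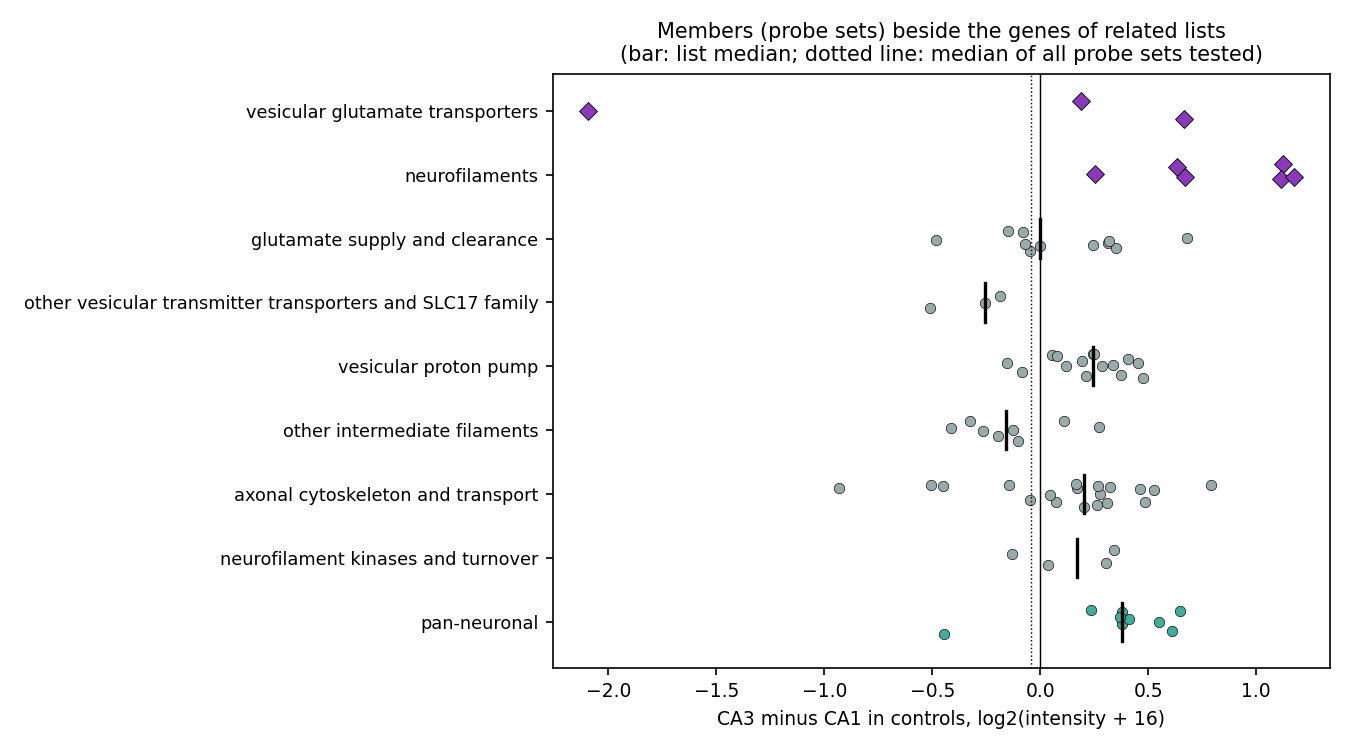
CA3 minus CA1 difference in controls, in log2(intensity + 16) (horizontal axis), of the member probe sets (diamonds), of the tested genes of 6 related lists and of pan-neuronal genes (circles, 1 probe set per gene). Black bars are list medians and the dotted line is the median of all probe sets tested, at -0.04. Slc17a6 at -2.09 lies left of every circle, and the Nefl and Nefm probe sets lie right of every circle. The members were chosen by this difference, so nothing is read from their place. Genes of the fields themselves, such as Pou3f1 (-4.52) and Cpne4 (3.08), lie further out and are not shown.

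Genes with the most similar profiles were sought among 10838 others, by the root mean square difference of centred log2 values over the 8 arrays. For Slc17a6 these were the receptor gene Gpr161 (0.26), the inositol trisphosphate kinase gene Itpka (0.26) and the neuropeptide gene Cck (0.27). All 3 had more signal in CA1, and Cck read 33964, 29174 and 22234 in CA1 controls and 6895, 7874 and 4548 in CA3 controls. The nearest to Slc17a7 were Tspan17 (0.084), the vesicle-recycling GTPase gene Dnm1 (0.12) and Lynx1 (0.12). For Nefl they were the active zone scaffold gene Erc1 (0.099), the protocadherin gene Pcdh20 (0.16) and the postsynaptic scaffold gene Homer3 (0.18), and for Nefm Tspyl2 (0.16), Dgkb (0.18) and Pgm2l1 (0.18). Nefh was nearest to Pip5k1c (0.12), Cyb561 (0.13) and Snap25 (0.14), and Ina to Lum (0.16), Ypel3 (0.17) and Serf1 (0.17). The likeness uses the same arrays and is a description with no test.

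In the lesion arrays the members tended to have less signal, and none passed the threshold. Averaged over both fields, 8 of the 9 probe sets were lower and 1 was higher than in controls, with a median of -0.34 against 0.02 for all probe sets tested. In limma 0 of the 9 passed, as did 0 of all 18625 (0.0%), and 1 of the 9, Nefh, and 1193 of all had an unadjusted p under 0.05. The count over all probe sets was 166 without the controls numbered 3 in both fields, with 0 members among them. That subset of controls was chosen after seeing the data. The lone lesion array of each field was assumed to vary like the controls, so the fit had 4 residual degrees of freedom. Both lesion arrays carry number 1 in their titles and were set against controls of every number.

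Nefh had the lowest p of the members for the mean lesion effect. Its intensity was 3059 in the CA1 lesion array against 4058 to 4938 in the CA1 controls, and 4664 in the CA3 lesion array against 5300 to 9405 in the CA3 controls. Both lesion arrays lay below all controls of their field, as for 8.03% of all probe sets. The mean lesion effect was -0.54 ± 0.24 (SE, 95% interval -1.07 to -0.02, limma adjusted p = 0.771).

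For Nefl the lesion effect averaged -0.32 ± 0.18 by 1370058_at and -0.24 ± 0.18 by 1370059_at (SE; adjusted p in limma 0.806 and 0.823). In CA1 the first lay below all controls at -0.44 and the second within them at -0.11, and in CA3 the first lay within them at -0.20 and the second below them at -0.36. The difference between the field effects was 0.24 ± 0.36 and -0.25 ± 0.37 (SE, limma adjusted p = 1.0 for both). The CA3 effect of 1370058_at was -0.06 without CA3 control 2 and -0.37 without CA3 control 3. Nefm was at 0.04 in CA1, within its controls, and at -0.51 in CA3, below them, with a mean of -0.24 ± 0.22 (limma adjusted p = 0.853).

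Slc17a6 was below all CA1 controls in the CA1 lesion array, at 2528 against 3723 to 5033, a difference of -0.79 with a 95% interval of -1.86 to 0.27 (limma adjusted p = 0.999). In the CA3 lesion array it lay within the controls, at 0.11 (-0.95 to 1.18, adjusted p = 0.980). The difference between these effects was 0.91 ± 0.68 (SE, limma adjusted p = 1.0), so the fields were not shown to differ. Slc17a7 averaged -0.45 ± 0.32 by its brighter probe set and -0.37 ± 0.26 by the other (adjusted p = 0.812 for both in limma). Without the controls numbered 3 in both fields the brighter one gave -0.75 ± 0.19 (limma adjusted p = 0.118), and without those numbered 1 it gave -0.27. Both subsets of controls were chosen after seeing the data. With all controls, the brighter probe set lay within the controls of both fields, and the other within those of CA1 and below those of CA3 (-0.26 and -0.48).

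Ina gave contrary values. The brighter probe set lay within the controls in both fields, at 0.17 in CA1 and -0.05 in CA3. The dim one read 806 after lesion in CA1, within its controls, and 77 after lesion in CA3 against 415 to 1136 in the CA3 controls, an effect of -3.02 ± 1.19 (SE, limma adjusted p = 0.937, unadjusted p = 0.0293). No member differed between the fields in its lesion effect past the threshold, nor did any of the 18625 probe sets (0.0%), while 576 had an unadjusted p under 0.05.

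**Figure D4:**
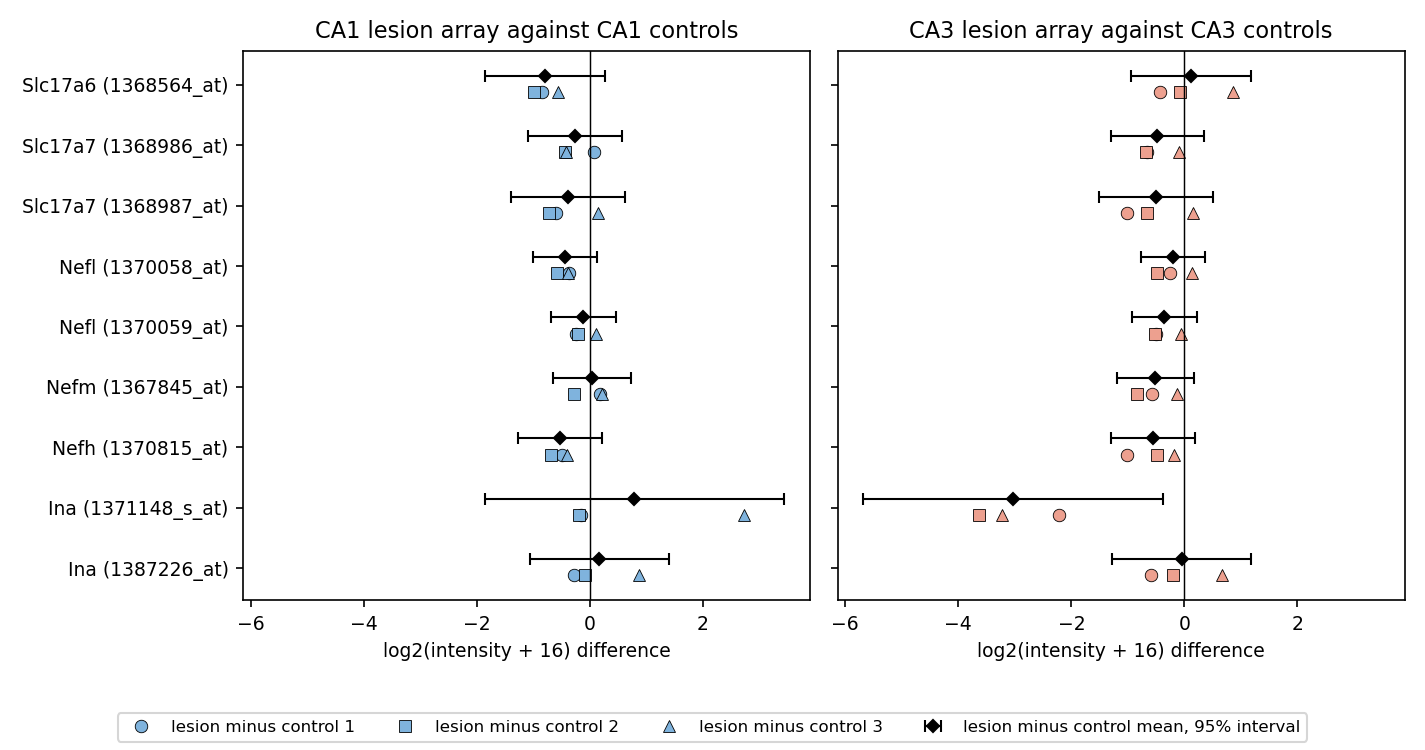
Lesion array minus controls in log2(intensity + 16) (horizontal axes) for each probe set, in CA1 on the left and CA3 on the right. Diamonds are the difference from the control mean with its 95% interval from limma, and circles, squares and triangles the difference from controls 1, 2 and 3. All intervals but that of the dim Ina probe set in CA3 include 0, and Nefh lies left of 0 against every control of both fields.

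Single fields were counted too. In CA1 the lesion array was below all 3 controls for 3 of the 9 probe sets and above all for 0, where 24.8% of all probe sets were below and 21.2% above. In CA3 it was below for 5 and above for 0, where 24.8% were below and 29.7% above. Limma called 0 of the 9 in CA1 and 0 in CA3, and 0 of all probe sets in either (0.0%), with 676 and 871 of all at an unadjusted p under 0.05.

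The controls themselves differed in these genes. Control 3 was the lowest of its field for 7 of 9 member probe sets in CA1 and 8 of 9 in CA3, compared with 35.1% and 36.3% of all probe sets. In CA3 the lesion array differed in Nefm by -0.13 from control 3 and by -0.84 from control 2. Centred over the 8 arrays, the median pan-neuronal gene was 0.19, 0.22 and -0.48 for the CA1 controls, 0.67, 0.43 and -0.12 for the CA3 controls, -0.49 for the CA1 lesion array and -0.27 for the CA3 one. All 9 pan-neuronal genes were lower in the mean lesion effect, with a median of -0.39 and 0 past the threshold. Against the median pan-neuronal gene, the lesion effect of Nefh was -0.06 (CA1) and 0.04 (CA3). In the same order of fields, Slc17a7 differed by 0.08 and 0.09 with the brighter probe set and by 0.22 and 0.12 with the other. Nefl differed by 0.03 and 0.40 (1370058_at) and by 0.36 and 0.24 (1370059_at), Nefm by 0.51 and 0.09, and Slc17a6 by -0.32 and 0.71. Ina differed by 0.64 and 0.55, and by 1.26 and -2.43 with its dim probe set.

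Glial genes were looked at in the same arrays. Of 8 tested microglia genes all were higher in the mean lesion effect, with a median of 2.60 and 0 past the threshold. Their summed intensity was 5686 to 73682 in CA1 controls and 5840 to 59910 in CA3 controls, against 104960 after lesion in CA1 and 77632 in CA3. The 6 tested oligodendrocyte genes had a median of 1.70, all higher and 0 past the threshold, with sums of 57451 to 570070 and 74942 to 395830 in the controls and 521980 and 563140 in the lesion arrays. Control 3 of each field stood highest among controls for the median microglia gene, at 1.36 in CA1 and 1.40 in CA3. The part of this in the member values was not tested.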

How the data were processed

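Total RNA was measured on 8 arrays, and the authors deposited 1 linear intensity per probe set and array. Every array had a 2% trimmed mean near 2501, so the deposited intensities appear to share 1 scale. The software is not given in the sources used here. The number of arrays limits the precision.

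Intensities were converted to log2(value + 16), which understates differences of dim probe sets. After removal of 57 control probe sets, 18625 at or above the 40th percentile of mean log2 value were tested with limma 3.58.1 in R 4.3.3, with 1 coefficient per group, all 8 arrays, intensity-trended moderated variances, and Benjamini-Hochberg adjustment over all tested at 0.05. The fit was tested on simulated data for the CA3 minus CA1 contrast only, with independent noise between arrays. The lesion contrasts were not simulated. Groups came from the sample titles. Members and lists were chosen with earlier results of these data known. Each listed gene entered with its brightest probe set. Named from a list were genes past the threshold in the region contrast, otherwise up to 3 with the smallest p, and likeness named 3 genes per member. Alternatives covered scaling, pseudocount, filter, variance trend, probe sets ending in _x_at, _s_at or _a_at, replicate block, gene averaging and arrays left out.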

Additional observations from a re-analysis of the deposited data

How the results depend on the processing

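The region differences of Slc17a6, Nefl, Nefm and Nefh and that of the brighter Slc17a7 probe set kept their sign in all 19 alternatives each. Many of these could not change it. The filters, the variance trend, the replicate block and leaving out lesion arrays return the same difference. Where control ranges were apart, leaving out controls could not turn the sign either, so nothing is read from this count. For the other Slc17a7 probe set and both Ina probe sets, 5 alternative values together had the other sign. Leaving out CA1 control 3 turned both Ina probe sets. No member passed the threshold for a lesion effect in any of 444 alternative values, the lowest adjusted p in limma being 0.0544, for the mean effect of the brighter Slc17a7 probe set with the replicate block, where it was -0.80 ± 0.20 (SE).

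The count of 98 probe sets in the region contrast was 0 without an intensity trend (1533 at an unadjusted p under 0.05) and 24 to 104 with single arrays left out, and among these 24 without CA1 control 2 or CA3 control 2, 27 without CA3 control 1 and 47 without CA1 control 1. It was 4 without the controls numbered 1 in both fields (chosen after seeing the data). The mean lesion count of 0 became 166 without the controls numbered 3 in both fields, also chosen after seeing the data, where the CA1 lesion count was 3, and it was 0 to 1 with single arrays left out. The CA3 lesion count was 5 with quantile normalisation, with a pseudocount of 1 and without the probe sets ending in _x_at, _s_at or _a_at. With the replicate block the counts were 358 for the region, 697 for the mean lesion, 258 for the CA1 lesion and 310 for the CA3 lesion contrast, with 0 members among the lesion calls. Same-numbered CA1 and CA3 controls deviated from their group means with correlations of 0.155, 0.060 and 0.306. Each control correlated best with its own number, but for CA1 control 2 by little, with 0.056 for CA3 control 1. The main fit nevertheless did not treat the numbers as pairs. Both lesion arrays carry number 1, and the main fit set them against controls of every number. None of the listed genes passed in the region contrast in any of 20 alternatives.

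Lesion effects near 0 turned. For Slc17a6 in CA3 the effect was -0.11 with quantile normalisation, -0.18 with the replicate block, -0.25 without the controls numbered 3, and -0.25 to 0.39 with single arrays left out. For Nefm in CA1 it was -0.031 and -0.049 without the controls numbered 1 and 3, and -0.049 to 0.19 with single arrays left out. For the brighter Ina probe set the mean effect was -0.44 with the replicate block, -0.29 without the controls numbered 3, and -0.12 to 0.20 with single arrays left out. In CA1 it was -0.34 with the block, -0.19 without the controls numbered 3, and -0.19 to 0.39, and in CA3 0.23 without the controls numbered 1, and -0.40 to 0.23. The dim Ina probe set in CA1 gave -0.17 without the controls numbered 3, and -0.17 to 1.28. The cause was not tested. Leaving out a lesion array gives no mean lesion effect, so that value was not computed.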
